A study of Homo sapiens with 8 samples.

Results

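Transcript levels of 10 established target genes of the canonical WNT pathway were examined in colorectal cancer cells with and without reduced UHRF1, the factor that brings the maintenance DNA methyltransferase DNMT1 to newly replicated DNA. The genes were LGR5, ASCL2, AXIN2, RNF43, ZNRF3, NKD1, NOTUM, MYC, LEF1 and TCF7. They were taken by gene name, and each was found in all 8 gene tables, as 10 of 60649 gene identifiers and of 19960 protein-coding genes. The study profiled polyadenylated RNA by paired-end sequencing in 4 groups of 2 libraries. HCT116, a human colorectal carcinoma line, was compared with UF1hypo, a heterozygous UHRF1 +/- derivative in which exon 4 of 1 UHRF1 allele had been removed by CRISPR-Cas9 editing. Each line carried either the control hairpin shScr or the UHRF1 hairpin shUHRF1. All 4 groups were therefore lentivirus-infected, puromycin-selected stable pools, and UF1hypo was a single edited clone, so that the effect of the allele and other differences of that clone cannot be told apart. The sources used here do not say whether the 2 libraries of a group came from separate cultures, so p-values measure only the spread between these libraries, which may be technical.

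In the canonical pathway, a WNT ligand bound to a Frizzled receptor and an LRP co-receptor switches off the APC and AXIN complex that otherwise marks beta-catenin for destruction. Stabilized beta-catenin enters the nucleus, where it joins TCF and LEF proteins on target genes, and many of these targets feed back on the pathway. In the intestine this signal maintains the crypt stem cell compartment, it is active in most colorectal cancers, and HCT116 itself carries a stabilizing mutation of the beta-catenin gene CTNNB1.

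Values are TPM, a transcript abundance that is scaled for gene length and sums to the same total in each library, so a level can be compared between genes within a library. Aligned sequence ranged from 5.42 to 7.83 gigabases per library, and the 10 most abundant genes held 7.89% to 14.1% of TPM. UHRF1 itself stood at 87.5 and 98.4 TPM in HCT116 with shScr and 31.7 and 32.7 with shUHRF1, and at 47.3 and 50.6 in UF1hypo with shScr and 34.1 and 21.1 with shUHRF1. It was lower with the hairpin in both lines, by a log2 fold change of -1.50 in HCT116 (limma adjusted p = 0.0564) and -0.84 in UF1hypo (adjusted p = 0.0406). The shUHRF1 groups of the 2 lines overlapped, so UHRF1 RNA did not order all 4 groups. At the protein level, the paper reports by Western blot less UHRF1 in UF1hypo than in HCT116 and a further fall there with knockdown. The 2 UF1hypo shUHRF1 libraries differed more from each other than any other pair (Pearson r = 0.956 against 0.991 to 0.992), and their difference followed the GC content of genes (Spearman rho = -0.799 over 13781 genes). The difference between the 2 UF1hypo shScr libraries also followed GC content (rho = 0.498), so both sides of the UF1hypo knockdown comparison were affected. In HCT116 rho was 0.0419 with shScr and 0.0669 with shUHRF1. Epithelial markers (EPCAM, keratins, CDH1, claudins and ELF3, with 8 of 8 above 1 TPM) summed to between 4879 and 13653 TPM. The sums were 4879 and 4959 in HCT116 with shScr and 6095 and 5969 with shUHRF1. In UF1hypo they were 9640 and 9993 with shScr and 13653 and 10586 with shUHRF1, above every HCT116 library. Markers of colonic epithelium were mixed. The regulator CDX2 lay between 12.1 and 18.3 TPM and KRT20 between 1.56 and 111 TPM. In contrast, CDX1, VIL1, CDH17, GPA33 and LGALS4 reached at most 0.496, 0.142, 0.148, 0.563 and 0.718 TPM in any library. Of 12 leukocyte, fibroblast and endothelial markers, 11 summed to only 0.382 to 1.85 TPM in a library, and the collagen gene COL1A1 stood at 65.5 and 37.7 TPM in UF1hypo shUHRF1 against 21.1 to 28.5 elsewhere. In bulk RNA, fewer cells expressing a gene and less RNA per cell cannot be told apart.

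The 10 targets fell into an expressed set of 7 and a set of 3 that was close to or at 0 (the panels of TPM by library). MYC, the growth-promoting transcription factor, was the most abundant in each library, at 203 to 493 TPM. NOTUM, RNF43, TCF7, AXIN2 and ZNRF3 followed at between 3.99 and 73.4 TPM, and NKD1 was the lowest of the expressed set at 1.62 to 3.28 TPM. The stem cell genes LGR5 and ASCL2 and the TCF family member LEF1 never reached 1 TPM. The 10 genes together summed to 570 and 579 TPM in HCT116 with shScr and 576 and 502 with shUHRF1, and to 342 and 314 in UF1hypo with shScr and 371 and 335 with shUHRF1. This sum was lower in both UF1hypo groups than in both HCT116 groups, and MYC made up most of it.

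**Figure D1:**
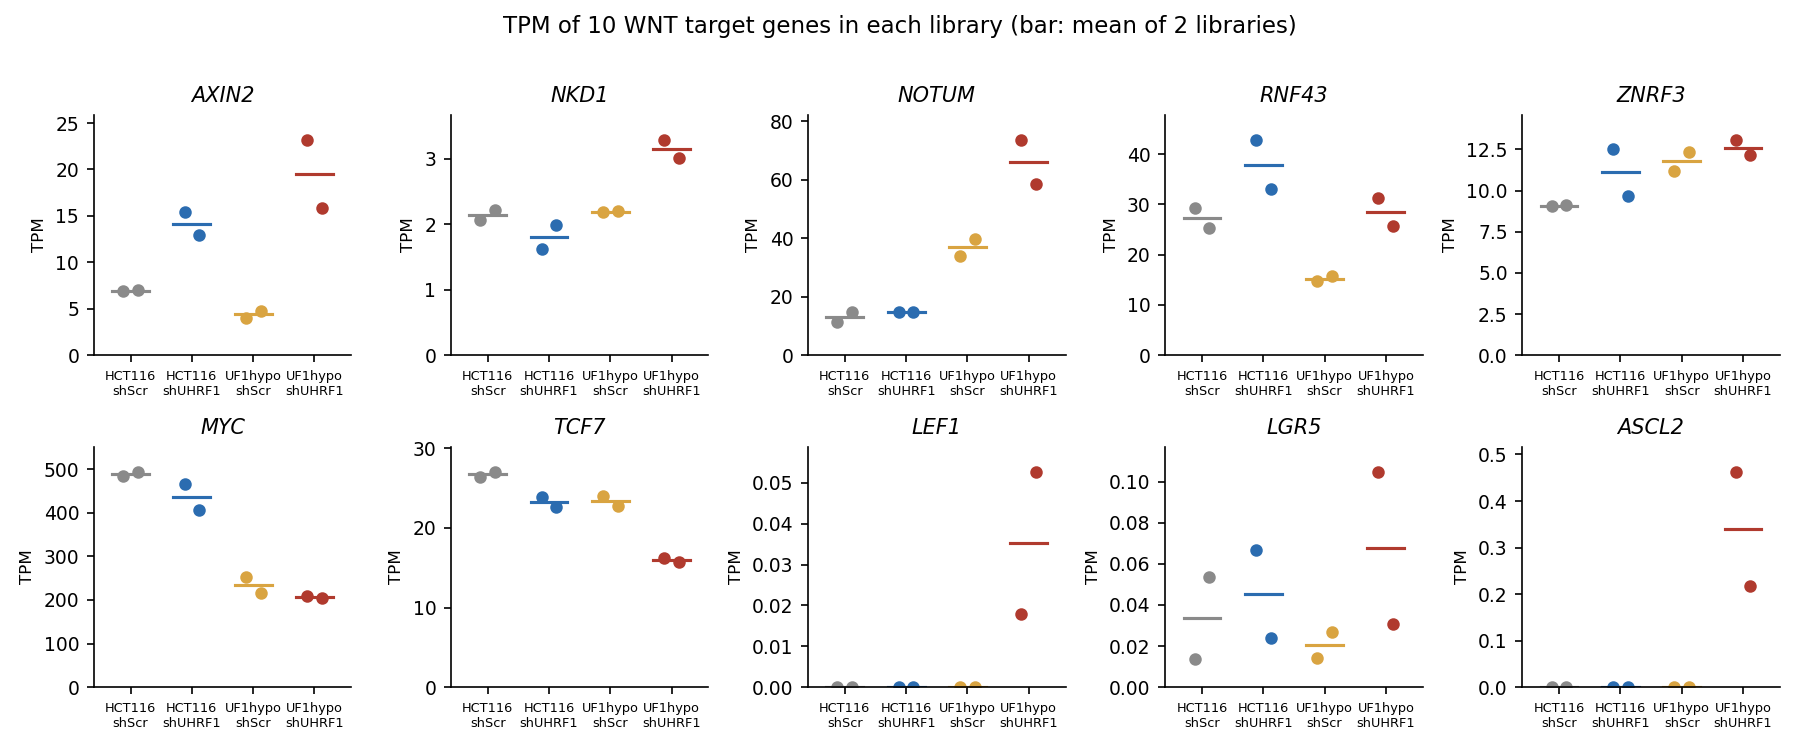
TPM of each of the 10 WNT target genes (vertical axes from 0, a separate scale per gene) in the 4 groups (horizontal axes), with a point per library and a bar at the mean of 2 libraries. AXIN2 reached 23.1 and 15.9 TPM in UF1hypo shUHRF1 against 3.99 and 4.81 in UF1hypo shScr, MYC separated the lines, and LEF1, LGR5 and ASCL2 stayed under 1 TPM.

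AXIN2, which encodes a scaffold of the beta-catenin destruction complex and is the classical feedback target of the pathway, differed most with UHRF1 knockdown among the 7 expressed genes. It is gene ENSG00000168646.13 at chr17:65528563-65561648 on the minus strand of GRCh38, with 11 exons in its canonical transcript. In HCT116 it was measured at 6.93 and 6.98 TPM with shScr and at 15.4 and 13.0 TPM with shUHRF1. In UF1hypo it was measured at 3.99 and 4.81 TPM with shScr and at 23.1 and 15.9 TPM with shUHRF1. Both knockdown groups lay above both control groups, without overlap, and UF1hypo spanned the wider range in each direction. AXIN2 rose 4.43-fold in UF1hypo (log2 fold change 1.91, SE 0.231, limma adjusted p = 0.00128), and it was called under all 16 alternatives, with log2 fold changes from 1.64 to 2.16. In HCT116 the ratio of means was 2.04 (log2 fold change 0.93, SE 0.230, adjusted p = 0.29), which did not pass the test. An adjusted p depends on all genes of its own comparison. At an unadjusted limma p below 0.05 there were 810 genes in HCT116 and 3735 in UF1hypo. Adjusted p-values of the 2 lines are therefore not on a common scale. The adjusted p of that HCT116 difference was 0.00487 with library weights, 0.0106 with only the 4 HCT116 libraries and 0.0151 after GC and length correction, with log2 fold changes from 0.93 to 0.95. Under the other alternatives that left out no library the adjusted p was between 0.249 and 0.485. With a library left out the log2 fold change was between 0.81 and 1.04. AXIN2 was called in HCT116 under none of the 16 alternatives. The 2 knockdown effects differed by 0.98 on the log2 scale (SE 0.326, adjusted p = 0.146), which did not pass either. Without UF1hypo shUHRF1 replicate 2 the same difference was 1.24 (adjusted p = 0.0162), and without replicate 1 it was 0.72 (adjusted p = 0.111).

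RNF43 and ZNRF3 encode the related membrane ubiquitin ligases that remove Frizzled receptors from the cell surface. RNF43 (ENSG00000108375.13, chr17:58353676-58417595, minus strand, 10 exons) was measured at 29.3 and 25.4 TPM in HCT116 shScr and at 42.7 and 33.0 in HCT116 shUHRF1. In UF1hypo it was measured at 14.7 and 15.7 TPM with shScr and at 31.3 and 25.7 TPM with shUHRF1. Knockdown libraries were above their controls in both lines, and UF1hypo shScr was the lowest group by a clear gap. In UF1hypo the log2 fold change was 0.86 (SE 0.198, limma adjusted p = 0.0246, ratio of means 1.88), which passed on p and missed the fold threshold. That p was 0.131 with only the 4 UF1hypo libraries and 0.208 with library weights. In HCT116 the log2 fold change was 0.45 (SE 0.199, adjusted p = 0.79), and the difference between the 2 effects was 0.41 (adjusted p = 0.507). ZNRF3 (ENSG00000183579.16, chr22:28883572-29057488, plus strand, 9 exons) was at 9.05 and 9.13 TPM in HCT116 with shScr and 12.5 and 9.68 with shUHRF1, and at 11.2 and 12.4 in UF1hypo with shScr and 13.1 and 12.2 with shUHRF1. Its UF1hypo groups overlapped, and its log2 fold changes with knockdown were 0.25 in HCT116 (SE 0.198, adjusted p = 1) and 0.09 in UF1hypo (SE 0.198, adjusted p = 0.804). The noncoding gene TSPOAP1-AS1 overlaps RNF43 on the opposite strand at 0.396 to 6.62 TPM, and without a stated strand setting its reads and those of RNF43 cannot be told apart.

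NOTUM, a secreted enzyme that inactivates WNT ligands by removing their lipid, differed between the lines rather than with knockdown in HCT116. It lies at chr17:81952507-81961840 on the minus strand (ENSG00000185269.12, 11 exons). It was measured at 11.5 and 14.8 TPM in HCT116 with shScr and 14.7 and 14.7 with shUHRF1, and at 34.0 and 39.7 in UF1hypo with shScr and 73.4 and 58.4 with shUHRF1. The HCT116 groups overlapped and both lay below every UF1hypo library, and UF1hypo shUHRF1 was the highest group. NOTUM was higher in UF1hypo than in HCT116 with shScr, 2.80-fold (log2 fold change 1.43, SE 0.201, limma adjusted p = 0.00501), and with shUHRF1, 4.50-fold (log2 fold change 2.09, SE 0.200, adjusted p = 0.000195). The call with shScr was lost without HCT116 shScr replicate 1 (1.25, adjusted p = 0.0824) and without UF1hypo shScr replicate 2 (1.32, adjusted p = 0.0804). With knockdown in UF1hypo the log2 fold change was 0.82 (SE 0.200, adjusted p = 0.031), under the fold threshold. It was 0.54 after correction for GC content and length (adjusted p = 0.019), where NOTUM has a GC content of 65.7%, and the adjusted p was 0.0585 with the replicate number as a block and 0.138 with only the 4 UF1hypo libraries. In HCT116 it was 0.16 (SE 0.201, adjusted p = 1), and the difference between the knockdown effects was 0.66 (SE 0.283, adjusted p = 0.261).

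NKD1 encodes an intracellular inhibitor that binds Dishevelled. It lies at chr16:50548396-50649249 on the plus strand (ENSG00000140807.7, 10 exons), and it was measured at 2.06 and 2.21 TPM in HCT116 with shScr and 1.62 and 1.99 with shUHRF1, and at 2.18 and 2.20 in UF1hypo with shScr and 3.28 and 3.01 with shUHRF1. Knockdown libraries were below their controls in HCT116 and above them in UF1hypo, in each library. The log2 fold changes were -0.16 in HCT116 (SE 0.212, limma adjusted p = 1) and 0.38 in UF1hypo (SE 0.194, adjusted p = 0.25), and their difference was 0.54 (SE 0.274, adjusted p = 0.351). None of these 3 values passed the test.

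Of the DNA-binding partners of beta-catenin among the 10 genes, TCF7 was expressed and LEF1 was close to 0. TCF7 (ENSG00000081059.20, chr5:134114681-134151865, plus strand, 10 exons) was measured at 26.5 and 27.0 TPM in HCT116 with shScr and 23.9 and 22.7 with shUHRF1, and at 24.0 and 22.8 in UF1hypo with shScr and 16.2 and 15.8 with shUHRF1. The UF1hypo knockdown libraries were the lowest and did not overlap any other group, whereas the middle groups overlapped each other. The log2 fold change with knockdown was -0.52 in UF1hypo (SE 0.161, limma adjusted p = 0.0703) and -0.19 in HCT116 (SE 0.164, adjusted p = 1), with a difference of -0.33 (SE 0.228, adjusted p = 0.519). Across alternatives the UF1hypo value ranged from -0.71 to -0.48 and its adjusted p from 0.00316, after GC and length correction, to 0.383. The 3′ end of TCF7 overlaps SKP1, a ubiquitin ligase subunit on the opposite strand at 38.8 to 71.7 TPM, so that reads of the pair cannot be separated where they overlap. LEF1 (ENSG00000138795.10, chr4:108047545-108168956, minus strand, 12 exons) was listed at 0 in 6 libraries and at 0.0178 and 0.0526 TPM in UF1hypo shUHRF1, and it was not tested.

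RefSeq promoter windows (250 bases before to 50 after a start site, GRCh38.p14) were at hand for 3 of the 10 genes, namely RNF43, LEF1 and TCF7, in 5 windows. Upstream stretches outside annotated exons are printed for RNF43 (1 of 2 start sites) and TCF7 (both start sites), to show the CpG content before the start of 2 expressed targets, CpG being the site that UHRF1 and DNMT1 keep methylated. The stretch before the other RNF43 start site, with 0 CpG in 250 bases, is not printed. Capitals mark each CpG. The RNF43 stretch is chr17:58417596-58417784 on the minus strand, with 4 CpG in 189 bases, and the TCF7 stretches are chr5:134115388-134115562, with 19 CpG in 175 bases, and chr5:134123368-134123617, with 1 CpG in 250 bases, both on the plus strand.
RNF43: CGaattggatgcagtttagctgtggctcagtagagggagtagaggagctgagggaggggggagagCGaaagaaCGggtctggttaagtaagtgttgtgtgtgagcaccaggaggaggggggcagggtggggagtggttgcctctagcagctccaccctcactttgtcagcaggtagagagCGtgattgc
TCF7 first start: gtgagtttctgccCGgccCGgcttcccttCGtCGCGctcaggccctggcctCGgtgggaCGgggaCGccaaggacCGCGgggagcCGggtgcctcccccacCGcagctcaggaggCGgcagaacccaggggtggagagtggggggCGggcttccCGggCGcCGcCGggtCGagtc
TCF7 second start: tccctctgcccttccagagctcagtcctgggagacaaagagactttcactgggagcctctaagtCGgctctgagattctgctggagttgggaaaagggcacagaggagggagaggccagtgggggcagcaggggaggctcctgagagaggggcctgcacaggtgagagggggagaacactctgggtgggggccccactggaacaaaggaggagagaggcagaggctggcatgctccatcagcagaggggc
Over the full windows, the ratio of observed to expected CpG was 0.250 and 0 at the 2 RNF43 starts, 0.545 at LEF1, and 0.688 and 0.118 at the 2 TCF7 starts, beside a median of 0.579 over 35116 windows of the same length. The TCF and LEF letters CTTTGAT or CTTTGAA, and likewise CTTTGTA or CTTTGTT, were searched on both strands. They were found in 1 of the 5 windows, as CTTTGTT on the minus strand of the second TCF7 start, and in 13.8% of all windows. A match of these letters is a description of the sequence and not a binding site, and no methylation was measured in these libraries.

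The stem cell genes were barely detected in any group. LGR5, the R-spondin receptor that marks crypt stem cells (ENSG00000139292.13, chr12:71439798-71586310, plus strand, 18 exons), was listed at 0.0138 and 0.0534 TPM in HCT116 with shScr and 0.0667 and 0.0241 with shUHRF1, and at 0.0144 and 0.0269 in UF1hypo with shScr and 0.105 and 0.0309 with shUHRF1. Its groups overlapped except in UF1hypo, where the knockdown libraries were both above the controls, at levels where no difference can be judged. ASCL2, a stem cell transcription factor (ENSG00000183734.5, chr11:2268498-2270588, minus strand, 2 exons), was listed at 0 in 6 libraries and at 0.462 and 0.217 TPM in UF1hypo shUHRF1. ASCL2 and LEF1 thus had the same pattern, with values above 0 in both UF1hypo shUHRF1 libraries and in no other. It was not particular to these targets, since PTPRC, TDGF1, CDX1 and TFF3 had it too, and its share over all genes was not counted. More gene identifiers exceeded 1 TPM in the UF1hypo shUHRF1 libraries, 16583 and 16819, than in the others, at 14899 to 15206. All of these values were under the minimum of 1 TPM that a gene had to exceed in a library, so LGR5, ASCL2 and LEF1 entered no test and no fold is given against groups at 0.

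MYC separated the lines and differed little with knockdown. The gene (ENSG00000136997.21, chr8:127735434-127742951, plus strand, 3 exons) was measured at 485 and 493 TPM in HCT116 with shScr and 466 and 407 with shUHRF1, and at 252 and 217 in UF1hypo with shScr and 210 and 203 with shUHRF1. Every UF1hypo library lay below every HCT116 library, and within each line the knockdown libraries lay slightly below their controls without overlap. MYC was 2.08-fold lower in UF1hypo with shScr (log2 fold change -1.06, SE 0.141, limma adjusted p = 0.00396) and 2.11-fold lower with shUHRF1 (log2 fold change -1.07, SE 0.138, adjusted p = 0.000878). With knockdown the log2 fold changes were -0.17 in HCT116 (SE 0.142, adjusted p = 1) and -0.18 in UF1hypo (SE 0.138, adjusted p = 0.446), and they differed by -0.01 (SE 0.196, adjusted p = 0.981). The shScr call sat close to both thresholds. It was lost after GC and length correction (-0.98, adjusted p = 0.000637), without HCT116 shScr replicate 1 (-1.07, adjusted p = 0.0629) or replicate 2 (-1.05, adjusted p = 0.0599), and without UF1hypo shScr replicate 2 (-0.95, adjusted p = 0.0687). The shUHRF1 call was lost under 1 of 16 alternatives, without HCT116 shUHRF1 replicate 1, at -0.98 (adjusted p = 0.0162).

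**Figure D2:**
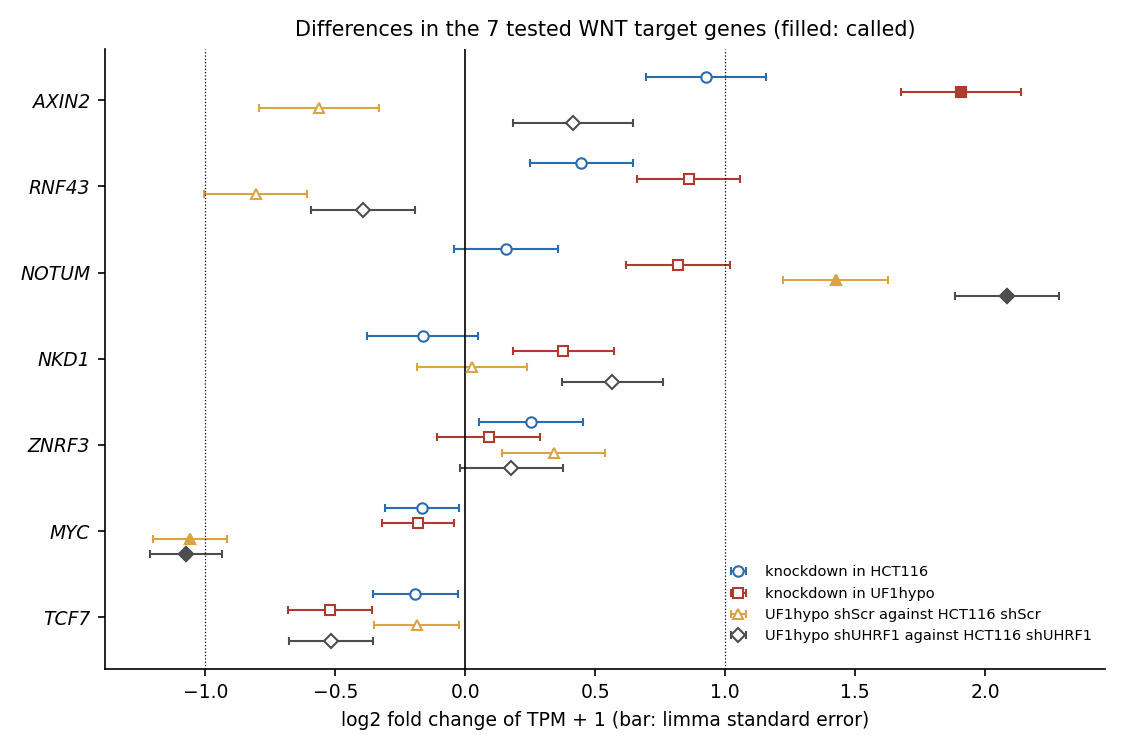
Log2 fold changes of TPM + 1 (horizontal axis) of the 7 tested target genes (vertical axis) in 4 comparisons, each point with its limma standard error as a bar, filled where called and with dotted lines at the fold threshold. AXIN2 in UF1hypo knockdown, at 1.91, and NOTUM and MYC between the lines are the filled points.

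A gene was called at a Benjamini-Hochberg adjusted p below 0.05 with an absolute log2 fold change above 1, over all genes of the comparison. With knockdown in HCT116, limma called 0 of the 7 targets, beside 0.0472% of 12704 genes called higher and 0.0236% called lower, and 0 of 7 had an adjusted p below 0.05 at any fold change, beside 0.0708%. At an unadjusted p below 0.05 there was 1 target, AXIN2, and 810 genes in all. The HCT116 groups did not overlap for 6 of the 7 targets, all but NOTUM, beside 49.4% of all genes. With knockdown in UF1hypo, 1 of 7 was called higher and 0 lower, beside 7.39% and 1.14% of 13620 genes. An adjusted p below 0.05 at any fold change was reached by 3 of 7 (AXIN2, RNF43 and NOTUM, all higher), beside 13.3%, and the groups did not overlap for 6 of 7, all but ZNRF3, beside 48.9%. The median log2 fold change of the 7 was 0.16 in HCT116 and 0.38 in UF1hypo, where the medians of all genes tested were -0.03 and 0.04. The difference of the 2 knockdown effects was called for 0 of 7, higher or lower, beside 4.54% and 0.559% of 13781 genes, and 0 of 7 had an adjusted p below 0.05 at any fold change, beside 5.22%. At an unadjusted p below 0.05 there were 2 targets, AXIN2 and NOTUM, and 2549 genes in all.

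Between the lines, which share their libraries with the knockdown comparisons, 2 of the 7 targets were called under either hairpin, NOTUM higher and MYC lower. With shScr these were 1 higher and 1 lower of 7, beside 2.59% and 0.949% of 12856 genes. The same 2 genes were those with an adjusted p below 0.05 at any fold change, beside 4.78%, and the groups did not overlap for 6 of 7, all but NKD1, beside 66.4%. RNF43 stood next, at 1.80-fold lower in UF1hypo shScr (log2 fold change -0.81, SE 0.199, adjusted p = 0.0571). AXIN2 was also lower there (-0.56, SE 0.230, adjusted p = 0.239). With shUHRF1 the calls were again 1 higher and 1 lower of 7, beside 12.2% and 3.92% of 13650 genes. An adjusted p below 0.05 at any fold change was reached by 3 of 7, with TCF7 at -0.52 (SE 0.161, adjusted p = 0.0423) as the third, beside 30.2%, and the groups did not overlap for 6 of 7, all but ZNRF3, beside 61%. AXIN2 was then at 0.42 (SE 0.231, adjusted p = 0.202) and RNF43 at -0.39 (SE 0.198, adjusted p = 0.165), and neither passed the test.

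The genes that carry the signal to these targets were examined from lists of 114 further pathway genes. CTNNB1 (beta-catenin) stood at 205 to 243 TPM in the 8 libraries and was called in none of the 5 comparisons, with log2 fold changes of 0.01 and 0.03 with knockdown in HCT116 and UF1hypo. APC, at 8.32 to 16.5 TPM, and AXIN1, at 24.7 to 40.3 TPM, are the core scaffolds of the destruction complex, and neither was called in any comparison. Among the DNA-binding partners, TCF7L1 stood at 12.7 to 22.4 TPM and was not called. TCF7L2, the main TCF of the intestine, was measured at 183 and 161 TPM in HCT116 with shScr and 163 and 190 with shUHRF1, and at 140 and 147 in UF1hypo with shScr and 82.9 and 97.0 with shUHRF1. Like TCF7, it was lowest in UF1hypo shUHRF1, where the 2 libraries lay below all others. Its log2 fold change with knockdown in UF1hypo was -0.67 (SE 0.155, limma adjusted p = 0.0249), under the fold threshold, and the difference from HCT116 was -0.71 (SE 0.219, adjusted p = 0.119). Of the 29 tested genes of the transduction core, 0 were called with knockdown in either line. Of all genes tested, 0.0472% were called higher and 0.0236% lower in HCT116, and 7.39% and 1.14% in UF1hypo. In the core, 0 genes in HCT116 and 2 in UF1hypo had an adjusted p below 0.05 at any fold change, beside 0.0708% and 13.3% of all genes.

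**Figure D3:**
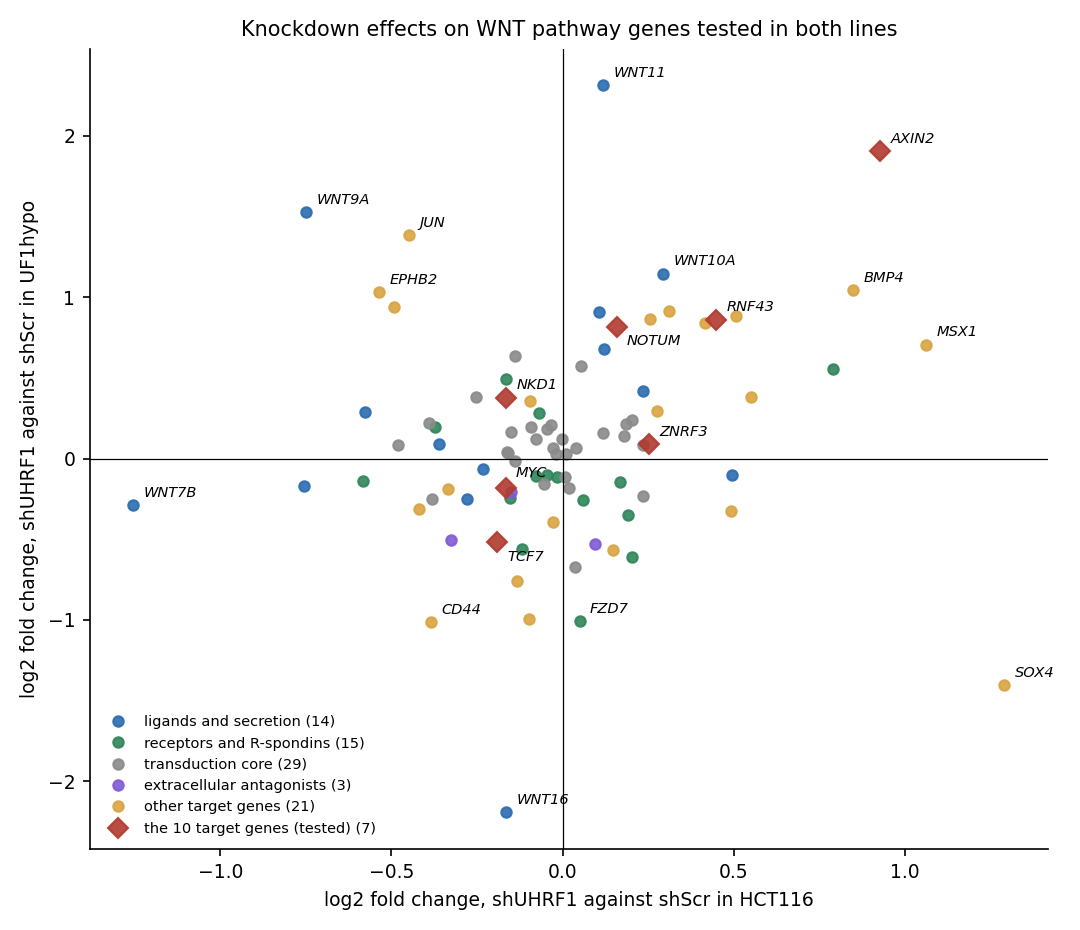
Log2 fold change with UHRF1 knockdown in HCT116 (horizontal axis) and in UF1hypo (vertical axis) for the WNT pathway genes tested in both lines, coloured by role, with the 7 tested target genes as red diamonds. AXIN2 lies at 0.93 and 1.91, SOX4 at 1.29 and -1.41, and TCF7L2 at 0.04 and -0.67.

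Of the 114 further genes, 82 were tested in HCT116 and 1 was called with knockdown, beside 0.0472% called higher and 0.0236% lower of 12704 genes. It was MSX1, a homeobox target that rose by a log2 fold change of 1.06 (SE 0.131, limma adjusted p = 0.038). That call was lost under 10 of 16 alternatives. In UF1hypo 90 were tested, of which 9 were called higher and 4 lower, beside 7.39% and 1.14% of all genes tested. A limma adjusted p below 0.05 at any fold change was reached by 24 of 90, with 16 higher and 8 lower, beside 13.3% of all genes. Of the 90, 8 exceeded 1 TPM only in UF1hypo shUHRF1 libraries, so that their entry into the test was set by that group, and 3 of these, DKK4, WNT5B and LGR6, are among the 13 called. Without the 8 genes, 10 of 82 were called. The shares over all genes still hold every gene that entered in this way, so no matched share stands beside that count. WNT9A, WNT11 and WNT16 were called under each alternative, as were DKK4 and WNT5B, whose entry was set by the group in which they were high. The other 8 of these 13 were lost under between 1 and 10 alternatives. The ligands and their secretion factors accounted for 5 of these among 17 tested, with WNT5B, WNT9A, WNT10A and WNT11 higher and WNT16 lower. WNT16 was measured at 187 and 180 TPM in HCT116 with shScr and 162 and 165 with shUHRF1, and at 77.1 and 73.5 in UF1hypo with shScr and 13.3 and 18.4 with shUHRF1, a stepwise order without overlap between groups. WNT9A was measured at 8.92 and 9.06, 4.99 and 4.89, 15.7 and 13.6, and 52.5 and 36.6 TPM in the same order of groups. Among 16 tested receptors and R-spondins, LGR6, a relative of LGR5, rose to 1.32 and 1.25 TPM in UF1hypo shUHRF1 from 0.0433 and 0, and FZD7 fell by 1.01 on the log2 scale (SE 0.172, adjusted p = 0.00639). Of 7 tested secreted antagonists, 4 were among the 8 genes above 1 TPM only in UF1hypo shUHRF1 and none of the other 3 was called. One of the 4, DKK4, an inhibitor of the LRP co-receptor, was at 34.5 and 30.6 TPM in UF1hypo shUHRF1 and at no more than 0.431 TPM in any other library.

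Other reported targets of the pathway, outside the 10 genes, moved in both directions in UF1hypo. Of 21 tested, 3 were called higher and 2 lower, beside 7.39% and 1.14% of all genes tested. A limma adjusted p below 0.05 at any fold change was reached by 12 of 21, with 8 higher and 4 lower, beside 13.3% of all genes. Of the called genes, JUN, EPHB2 and BMP4 rose, by log2 fold changes of 1.39, 1.03 and 1.04, and SOX4 and CD44 fell by 1.41 and 1.01. SOX4 was measured at 42.9 and 40.8 TPM in HCT116 with shScr and 107 and 100 with shUHRF1, and at 22.2 and 20.2 in UF1hypo with shScr and 6.11 and 8.81 with shUHRF1. Its knockdown libraries were above the controls in HCT116 and below them in UF1hypo, and the effects differed by -2.70 (SE 0.275, limma adjusted p = 0.00139). AXIN2 and BMP4 were alike in having log2 fold changes above 0.8 in both lines, and BMP4 differed by only 0.20 between them (SE 0.227, adjusted p = 0.734). The median log2 fold change of the 90 further genes with knockdown in UF1hypo was 0.11, beside 0.38 for the 7 targets and 0.04 for all genes tested.

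**Figure D4:**
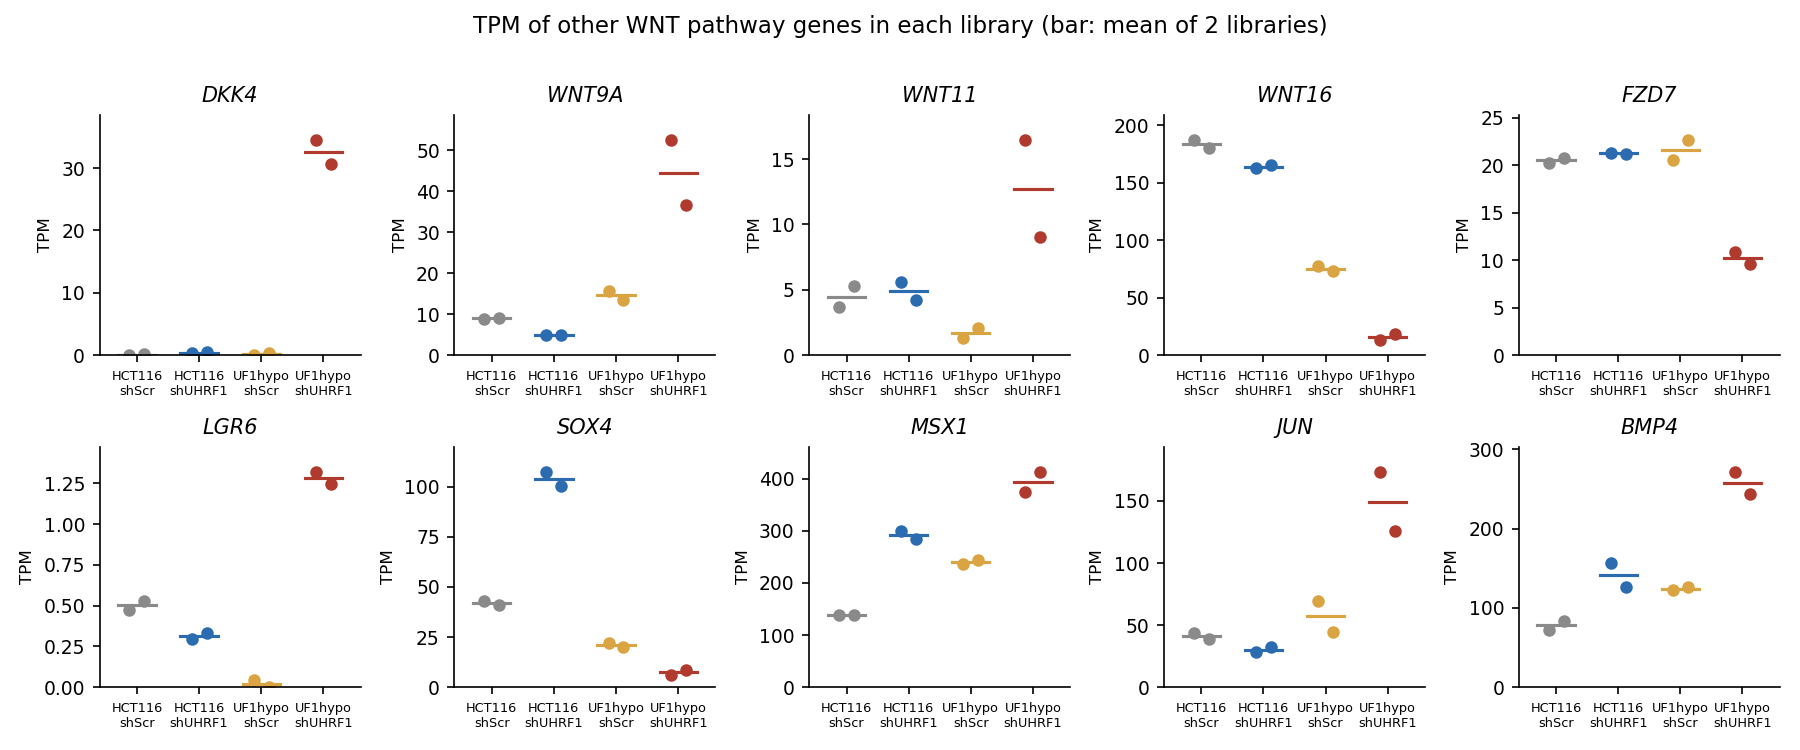
TPM of 10 further WNT pathway genes (vertical axes from 0, a separate scale per gene) in the 4 groups (horizontal axes), with a point per library and a bar at the mean of 2 libraries. DKK4 stands at 34.5 and 30.6 TPM in UF1hypo shUHRF1 alone, and WNT16 is ordered from HCT116 shScr down to UF1hypo shUHRF1.

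Over the 8 libraries, the protein-coding genes whose log2(TPM + 1) values were most like those of AXIN2 among 13781 candidates were ARID3A (Pearson r = 0.990), GRIP2 (r = 0.982) and VIM (r = 0.972). These correlations are descriptions, since the libraries of a group share their cell line and hairpin. VIM, the mesenchymal intermediate filament vimentin, was measured at 2.45 and 1.82 TPM in HCT116 with shScr and 15.0 and 11.7 with shUHRF1, and at 1.48 and 0.700 in UF1hypo with shScr and 44.6 and 27.6 with shUHRF1, in the same order of groups as AXIN2. For LGR5 the most similar were FBLL1 (r = 0.964), DDX39B (r = 0.953) and PHETA1 (r = 0.950), but these rest on LGR5 values of at most 0.105 TPM.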

How the data were processed

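RNA-seq libraries of HCT116 and UF1hypo cells (8 libraries, 4 groups of 2) were mapped by the authors to GRCh38 with HISAT2 2.0.4 after adapter trimming with Fastp, and quantified with StringTie 2.1.4. The deposited tables hold 3 values per gene, all made by the authors with StringTie: coverage, FPKM and TPM. The authors used DESeq2 on gene counts, which are not among the files used here. Coverage and FPKM served only for depth, and FPKM also as an alternative scale. Groups were taken from the sample titles.

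Records of a gene identifier were summed, and 60507 of 60649 identifiers were matched to GENCODE 44. Protein-coding genes that exceeded a TPM of 1 in any library of a comparison were fitted as log2(TPM + 1), so fold changes understate those of low genes. limma 3.58.1 in R 4.3.3 fitted all 8 libraries with the 4 groups as terms (4 residual degrees of freedom, variance trend, two-sided, Benjamini-Hochberg over all genes tested). The script was tested on simulated data with noise drawn independently per gene, which did not cover differences between libraries that follow GC content. A gene was called at an adjusted p below 0.05 and an absolute log2 fold change above 1. A two-sided exact permutation test of 2 against 2 libraries cannot give a p below 0.33, and none was used.

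Named genes were UHRF1, the 10 targets, CTNNB1, APC, AXIN1, TCF7L1 and TCF7L2, of each other list genes called in any comparison (at most 6 per list and comparison), and the 3 genes most correlated with AXIN2 and with LGR5. CDX2, the other colonic markers and COL1A1 are named as cell type markers, and SKP1 and TSPOAP1-AS1, which overlap targets, were chosen after their values were seen. PTPRC, TDGF1, CDX1 and TFF3, named beside ASCL2, were also chosen after their values were seen. The members and lists were chosen with earlier results of these data known. Alternatives changed the pseudocount to 0.1, the filter, the gene set, the unit, the scaling, the variance prior, library weights, GC and length bins, the replicate block, and left out each library in turn. Python scripts read the promoter windows and drew the figures.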

Additional observations from a re-analysis of the deposited data

Results flagged for a closer look

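Genes are listed here because the effect of UHRF1 knockdown differed between HCT116 and UF1hypo in the limma test of the difference, or because the knockdown libraries of the 2 lines lay on opposite sides of their controls in every library. All differences are UF1hypo effect minus HCT116 effect in log2 units. The groups did not overlap, in either direction, for 49.4% of all genes with knockdown in HCT116 and 48.9% in UF1hypo. How many of all genes lay on opposite sides in the 2 lines was not counted. Opposite sides are therefore a description and are not read as particular to these genes.

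Among the 10 targets this held for NKD1 alone, which lay below its controls in both HCT116 shUHRF1 libraries and above them in both UF1hypo shUHRF1 libraries. The difference was 0.54 (limma adjusted p = 0.351) and did not pass the test. Levels of NKD1 were between 1.62 and 3.28 TPM.

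Among the further pathway genes, the difference was called for 10 of 90 tested. Of these, 7 were higher and 3 lower, beside 4.54% and 0.559% of 13781 genes. It was positive for the antagonist DKK4 at 4.36 (adjusted p = 0.000211), for the ligands WNT9A at 2.28 (adjusted p = 0.00558), WNT11 at 2.20 (adjusted p = 0.0284) and WNT5B at 1.90 (adjusted p = 0.0416), for the receptor LGR6 at 1.35 (adjusted p = 0.0227), and for the AP-1 subunits JUN at 1.83 (adjusted p = 0.0204) and FOSL1 at 1.43 (adjusted p = 0.0265). It was negative for the ligand WNT16 at -2.03 (adjusted p = 0.00315), the transcription factor SOX4 at -2.70 (adjusted p = 0.00139) and the receptor FZD7 at -1.06 (adjusted p = 0.0453). DKK4, WNT5B and LGR6 exceeded 1 TPM only in the UF1hypo shUHRF1 libraries, so that group set their entry into the test. DKK4, SOX4, WNT9A and WNT16 were called under all 19 alternatives, and the other 6 were lost under between 6 and 12 of them.

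The libraries lay on opposite sides in the 2 lines for 17 of the 114 further genes. The difference was called for 6 of the 17 and not for the other 11, of which 3 were called in another comparison, namely EPHB2 at 1.57 (adjusted p = 0.0506), CCND1 at 0.45 (adjusted p = 0.217) and the beta-catenin coactivator BCL9L at 0.77 (adjusted p = 0.115).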

How the results depend on the processing

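With 2 libraries per group, the number of genes called depended strongly on the setting, whereas the direction of the 7 tested targets in the comparisons that called them did not change. AXIN2 in UF1hypo knockdown was called under all 16 alternatives, and leaving out 1 library kept 1 of 7 targets called. Leaving out a library gave 0 targets in HCT116 knockdown, 0 to 1 for the difference of the effects, 0 to 2 between the lines with shScr and 1 to 2 with shUHRF1, and GC and length correction left 1 target with shScr.

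Knockdown in HCT116 called 9 genes, and 30 with a pseudocount of 0.1, 2 without the TPM filter, 3 with all annotated genes, 89 with only the 4 libraries compared, 3 with median-ratio scaling, 5 without the variance trend, 101 with library weights, 68 after GC and length correction, and 0 with any library left out. The further pathway genes called there were 1, and under those settings 2, 0, 0, 3, 0, 0, 3, 3 and 0. Knockdown in UF1hypo called 1162 genes, and 563 with only 4 libraries, 748 on FPKM, 539 with weights and 655 to 2241 with a library left out, the highest being without UF1hypo shUHRF1 replicate 2. Of the further pathway genes it called 13, and 6 with only 4 libraries, 7 with weights, 8 after GC and length correction and 9 to 19 with a library left out. The difference of the effects called 702 genes, and 448 with a pseudocount of 0.1, 419 with weights and 171 to 2116 with a library left out, with 10 further pathway genes against 6 with quantile normalization, 6 with weights and 4 to 18 with a library left out. Between the lines with shScr, 455 genes became 144 to 181 with a library left out, and 2 further pathway genes became 4 with only 4 libraries, 4 with weights, 6 after GC and length correction and 0 to 1 with a library left out. With shUHRF1, 2205 genes became 1576 to 3851, and 19 further pathway genes became 12 with weights and 14 to 26 with a library left out.

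Quantile normalization lowered the share of calls that were higher from 86.7% to 70.2% in UF1hypo knockdown, from 89.0% to 76.1% for the difference (73.8% after GC and length correction) and from 75.7% to 56.8% between the lines with shUHRF1. Without UF1hypo shUHRF1 replicate 2 the share was 61.8%, 65.0% and 56.4% in these comparisons. Quantile normalization moved the median of all genes from 0.04 to -0.06, from 0.08 to -0.06 and from 0.05 to -0.09 in these comparisons. MSX1 between the lines with shUHRF1 was 0.43 and became -0.00599 after GC and length correction. The cause of these shifts was not tested.

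The replicate numbers are shared across groups without a stated pairing, and deviations of same-numbered libraries correlated at 0.0547 in HCT116, -0.402 in UF1hypo, and 0.0258 and -0.0292 between the lines with shScr and shUHRF1. With the replicate number as a block, calls numbered 1 in HCT116 knockdown with 0 further pathway genes, 1110 in UF1hypo knockdown, 471 for the difference, 369 with shScr and 2171 with shUHRF1 between the lines, and the numbers of targets called were as without it. Depth, at 5.42 to 7.83 gigabases, limits what can be said of LGR5, ASCL2 and LEF1.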

Other observations

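Markers of differentiated colonic epithelium, which oppose the crypt program in normal colon, were mostly not expressed. Of 22 listed, 6 were above 1 TPM in any library. Of these 6, TFF3 and ANPEP exceeded 1 TPM only in UF1hypo shUHRF1 libraries, so that their entry into the test was set by that group. KRT20, a keratin of mature colonocytes, was measured at 1.66 and 1.56 TPM in HCT116 with shScr and 1.88 and 2.11 with shUHRF1, and at 9.28 and 9.06 in UF1hypo with shScr and 75.0 and 111 with shUHRF1. It rose by a log2 fold change of 3.18 in UF1hypo (SE 0.228, limma adjusted p = 7.51e-05) and was at 0.20 in HCT116 (SE 0.228, adjusted p = 1), and the difference between the effects was 2.98 (SE 0.322, adjusted p = 0.00179). CEACAM1, ANPEP and TFF3 also rose in UF1hypo, with TFF3 listed at 0 in the 6 other libraries and ANPEP at no more than 0.193 TPM in them. With KRT20, 4 of the 6 were called higher, TFF3 and ANPEP among them, beside 7.39% of all genes tested. CA2, a carbonic anhydrase of colonocytes, was lower in UF1hypo than in HCT116 with shScr, by a log2 fold change of -2.04 (SE 0.227, adjusted p = 0.00156), and in UF1hypo knockdown it was at -0.67 (SE 0.229, adjusted p = 0.0931).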
